A study of Mus musculus with 6 samples.

Results

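BAF complexes are chromatin remodelers that use the energy of ATP to slide or evict nucleosomes, and the genes that encode their subunits are described here in sorted cells of mouse embryos that the labels call neural crest cells. The members are 31 subunit genes of the 46983 genes in the count table, taken from the textbook composition of the complexes and grouped by where each subunit sits. All 31 were found, and 30 of them passed the filter on low counts, Dpf3 being the exception. RNAseq was done on GFP+ cells sorted from E11.25 embryos, 3 control and 3 BAF155/170-deficient. All 6 libraries carry the Wnt1Cre/+ driver and the Rosa26 mTmG/+ reporter. Control cells were in addition BAF155 flox/+ and BAF170 flox/+, and deficient cells BAF155 flox/flox and BAF170 flox/flox. The controls are thus heterozygous for both deletions wherever Cre has acted, and no library comes from embryos without floxed alleles. Cre was driven by Wnt1, which is also active in the dorsal neural tube, and GFP marks any cell in which Cre has acted and its descendants.

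Each complex is built on a core that holds the dimer of BAF155 (encoded by Smarcc1) and BAF170 (Smarcc2), onto which an arm and an ATPase module assemble. Canonical BAF (cBAF), polybromo-associated BAF (PBAF) and non-canonical BAF (ncBAF) share part of that core and differ in a few defining subunits. Many positions can be filled by either of a set of paralogs, and neural progenitors and neurons are known for exchanging some of them. A few members serve elsewhere too: Actl6a and Actb also belong to the INO80 and TIP60 remodelers, and Actb is the main cytoskeletal actin.

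The libraries held between 8191219 and 19808620 counts, and the shallowest deficient library still exceeded the deepest control. The label of the cells was checked against marker genes, in counts scaled to library size (CPM). The 22 markers of neural crest and crest mesenchyme summed to 277 to 458 CPM in control and 166 to 214 CPM in deficient libraries, where Sox10 lay between 0.855 and 7.76 CPM. The largest parts came from collagen genes, which are also in the sum of 43 genes below. In control libraries Col1a1 was at 51.8 to 84.15, Col1a2 at 74.35 to 111.6 and Col3a1 at 53.2 to 91.1 CPM. In deficient libraries they were at 36.8 to 39.8, 49.2 to 58.2 and 29.9 to 39.3 CPM. The 13 macrophage markers summed to 12130 to 14060 CPM in control and 14190 to 15480 CPM in deficient libraries, with Ctss and Lyz2 between 2995 and 4299 CPM, so their transcripts far outnumbered those of crest markers in all 6 libraries that the labels call neural crest. Neuron markers (11 genes) summed to 84.4 to 213 CPM against 38.4 to 58.8 CPM, and neural tube progenitor markers (10 genes) to 60.1 to 93.0 CPM against 39.3 to 65.9 CPM. Taken as 1 embryonic sum of 43 genes, these crest, neuron and neural tube markers gave 519, 764 and 422 CPM in control replicates 1, 2 and 3 and 339, 260.0 and 258 CPM in deficient replicates 1, 2 and 3. Among the other lists, endothelial markers summed to 174 to 196 CPM against 200 to 212 CPM. Kdr alone gave 165 to 186 CPM against 190 to 202.5 CPM of this, and every other endothelial marker overlapped between the groups. Neutrophil markers summed to 17.5 to 22.7 CPM against 23.9 to 27.5 CPM, but the list was divided. In deficient libraries S100a8, S100a9, Camp and Mpo had higher means, and Ngp, Ltf and Elane lower means. Erythroid sums overlapped between the groups (22.1 to 67.3 CPM and 16.9 to 22.8 CPM), but this list was divided too. Hbb-y (5.66 to 24.35 against 2.20 to 3.60 CPM) and Hba-x (3.53 to 18.9 against 1.405 to 3.29 CPM) did not overlap. Among the 8 erythroid markers tested, 4 were lower and 4 higher by log2 fold change. Epithelial marker sums did not exceed 2.94 CPM. In bulk samples such as these, fewer cells of a type and less RNA per cell cannot be told apart.

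Smarcc1 and Smarcc2 carry the floxed alleles, so they were examined first. Smarcc1 (ENSMUSG00000032481.16, chromosome 9, 110117708 to 110240178, plus strand) lies in GRCm38 on a different chromosome from Smarcc2 (ENSMUSG00000025369.14, chromosome 10, 128459248 to 128490482, plus strand). Their RefSeq promoters (GRCm38.p6, 250 bases before to 50 after the start) are shown because these are the loci the cross was designed to alter, and each is read 5′ to 3′ with the GC box GGGCGG in capitals.
Smarcc1, chr9:110131774-110132073, plus strand: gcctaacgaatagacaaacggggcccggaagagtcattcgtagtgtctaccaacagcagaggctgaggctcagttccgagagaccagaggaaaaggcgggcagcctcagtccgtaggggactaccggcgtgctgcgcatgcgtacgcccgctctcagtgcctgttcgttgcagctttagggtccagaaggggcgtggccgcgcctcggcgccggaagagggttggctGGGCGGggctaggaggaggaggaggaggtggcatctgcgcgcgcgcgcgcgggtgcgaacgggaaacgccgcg
Smarcc2, chr10:128458986-128459285, plus strand: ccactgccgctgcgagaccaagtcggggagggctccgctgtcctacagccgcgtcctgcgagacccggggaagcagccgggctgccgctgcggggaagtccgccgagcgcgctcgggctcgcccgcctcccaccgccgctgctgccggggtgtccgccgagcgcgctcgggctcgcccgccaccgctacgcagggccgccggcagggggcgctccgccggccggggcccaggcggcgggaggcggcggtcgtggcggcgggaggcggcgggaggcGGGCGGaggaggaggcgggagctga
The Smarcc1 window lies wholly inside the gene coordinates above, so its RefSeq start is not the first base of the gene. The Smarcc2 window spans the first base of its gene. Both promoters are rich in CpG, with 33 CpG in that of Smarcc1 and 48 in that of Smarcc2, and each holds 1 GC box. Neither holds GGAATG, the core motif bound by Tead factors. Both motifs were searched on both strands, and a match to one can share its outer GG with a match to the other. Of 32851 promoters of this length 35.7% held the GC box and 14.7% the Tead motif. RefSeq gave 26 promoters for 24 of the members, as Arid1a and Brd9 had alternative ones. Of these promoters, 24 held the GC box and 4 the Tead motif, namely those of Smarcd3, Actl6b and Brd9.

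Smarcc1 RNA was lower in the BAF155/170-deficient libraries. Its level was 42.1, 55.0 and 35.1 CPM in control replicates 1, 2 and 3, and 29.4, 26.4 and 24.5 CPM in deficient replicates 1, 2 and 3. Every deficient library lay below every control library, and the mean fell from 44.1 ± 10.1 CPM to 26.7 ± 2.48 CPM (SD, n = 3 each). The log2 fold change was −0.71 (SE 0.16), that is 39.0% lower. The adjusted p was 0.0676 in the quasi-likelihood test of edgeR, adjusted by Benjamini-Hochberg over 13961 genes. Its adjusted p exceeded 0.1 without control replicate 1 (log2 fold change −0.74, adjusted p = 0.222) and on dropping replicate 2 (−0.70, adjusted p = 0.132) or replicate 3 (−0.65, adjusted p = 0.226) of the deficient group. Its log2 fold change came short of 0.58 in size without control replicate 2 (−0.53) and with a length trend removed (−0.57), and it reversed to 0.39 (edgeR adjusted p = 0.374) under scaling to the embryonic markers. Both the control and the deficient libraries stood in the same order for Smarcc1 as for the embryonic marker sum, whose part in the fall was not tested. That sum was near a tie between deficient replicates 2 and 3 (260.0 and 258 CPM). Between 375 and 515 reads of Smarcc1 were counted in each deficient library. The table has 1 count for the whole gene, so transcripts missing nothing but the floxed exons remain in it, as does RNA from any cell in which recombination did not occur.

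Smarcc2 RNA was close to equal between the groups, although both of its copies are floxed in the deficient embryos. It stood at 91.8, 89.9 and 92.9 CPM in control and at 85.9, 82.3 and 86.8 CPM in deficient replicates 1, 2 and 3. The groups did not overlap, but the means were close, at 91.5 ± 1.52 and 85.0 ± 2.38 CPM (SD, n = 3 each). The log2 fold change was −0.11 (95% interval −0.23 to 0.019, edgeR adjusted p = 0.251), that is 7.17% lower. A fall as large as that of Smarcc1 thus lies outside that interval. Per kilobase of exon, Smarcc2 was the more abundant of the pair in every library. Smarcc1 made up 24.5%, 30.2% and 21.1% of their summed level in control replicates 1, 2 and 3 and 19.5%, 18.5% and 16.7% in deficient replicates 1, 2 and 3.

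**Figure D1:**
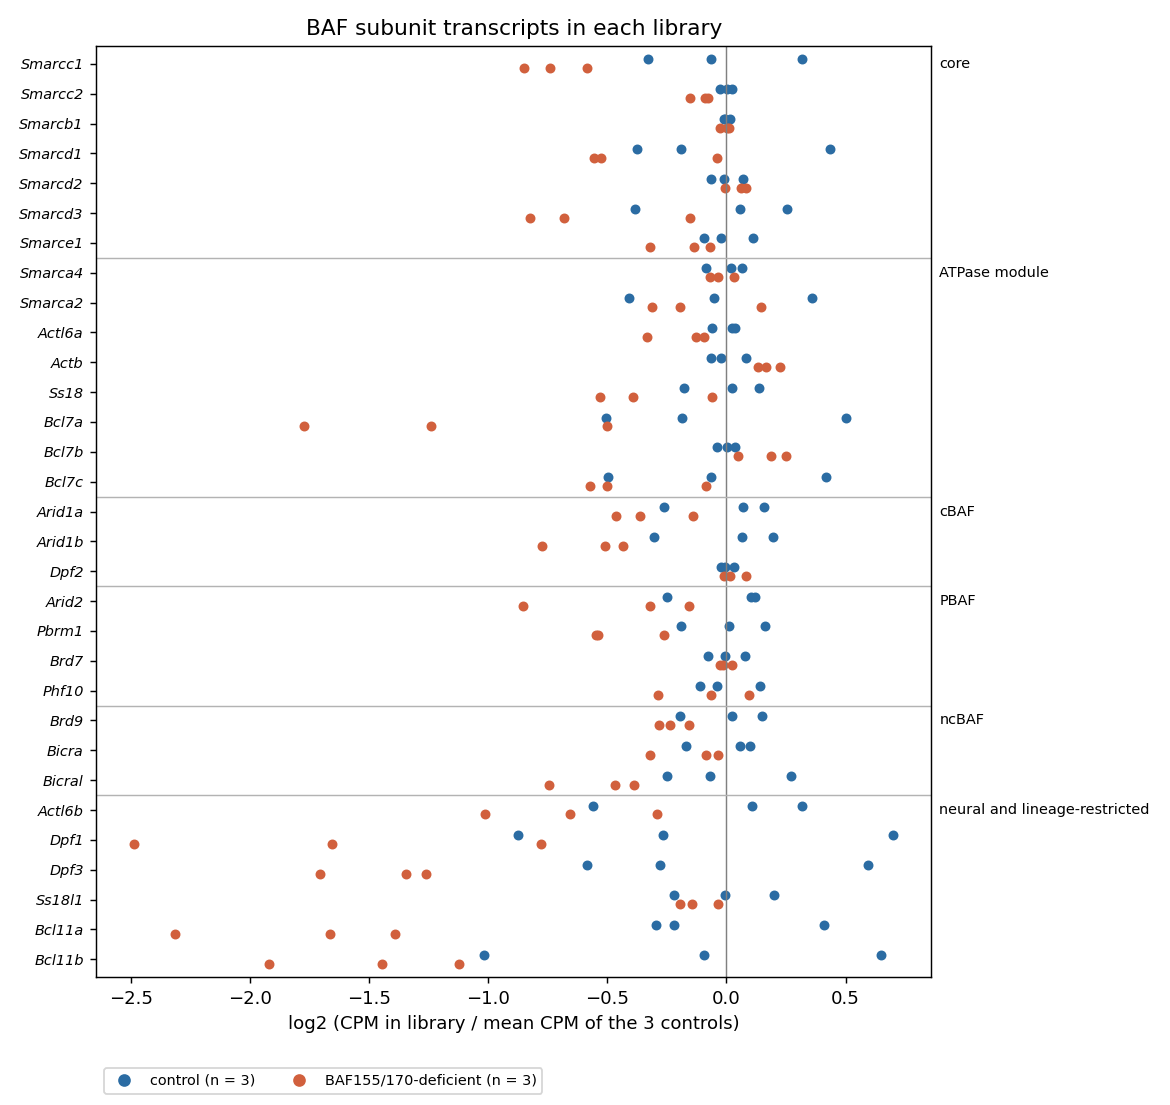
Log2 ratio of the CPM of each BAF subunit gene in each library to its mean CPM over the 3 control libraries (horizontal axis), with the 31 genes listed downward by role, control libraries as blue points and deficient libraries as orange points. Smarcc1, Bcl11a and Bcl11b show the 3 deficient points to the left of all 3 control points, while the points of Smarcb1, Smarca4 and Brd7 lie close to 0 in both groups.

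Over the whole family, 26 of the 30 tested members had a negative log2 fold change and 4 a positive one, where 52.3% of all tested genes were negative, but only 3 members stayed negative when libraries were scaled to the embryonic markers. The median was −0.27 for the members and −0.02 for all tested genes. Under the embryonic scaling both medians rose, to 0.81 for the members and 1.03 for all genes. With the adjusted p limited to 0.1 (edgeR, Benjamini-Hochberg), 5 members were lower and none higher, that is 16.7% of the tested members beside 11.9% of all tested genes (7.75% lower and 4.18% higher). These were Smarcc1, Arid1b, Pbrm1, Bcl11a and Bcl11b. A call also required a log2 change of 0.58 or more in either direction and a mean of 2 CPM or more. This left 3 members (10% of those tested), Smarcc1, Bcl11a and Bcl11b, all lower, beside 4.94% of all tested genes (4.88% lower and 0.0573% higher). At an unadjusted p under 0.05 there were 12 members, beside 27.3% of all genes.

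Those counts rested on few libraries. Without control replicate 1, 6 members had an unadjusted p under 0.05 by edgeR, beside 2547 of 14318 genes. With the adjusted p limited to 0.1, 0 members and 0 of all genes remained there. Leaving out control replicate 2 gave 2 members beside 0.510% of all genes, and leaving out control replicate 3 gave 11 members beside 25.95% of all genes. Leaving out deficient replicates 1, 2 and 3 in turn gave 8, 2 and 0 members by edgeR, beside 14.8%, 2.89% and 0.133% of all genes. In the last case 8 members had an unadjusted p under 0.05, beside 2200 of 14280 genes. The members' counts thus rose and fell with those of all genes. The members' median log2 fold change was −0.15 without control replicate 2.

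Separation of the groups was read library by library as well. Among the tested members, 8 lay lower in every deficient than in every control library, beside 16.4% of all tested genes, and 2 lay higher, beside 15% of all tested genes. The lower ones were Smarcc1, Smarcc2, Actl6a, Arid1b, Pbrm1, Bicral, Bcl11a and Bcl11b, and the higher ones Actb and Bcl7b. For 14 members the 95% interval of the log2 fold change lay within 0.58 of 0 in both directions, beside 52.3% of all genes.

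**Figure D2:**
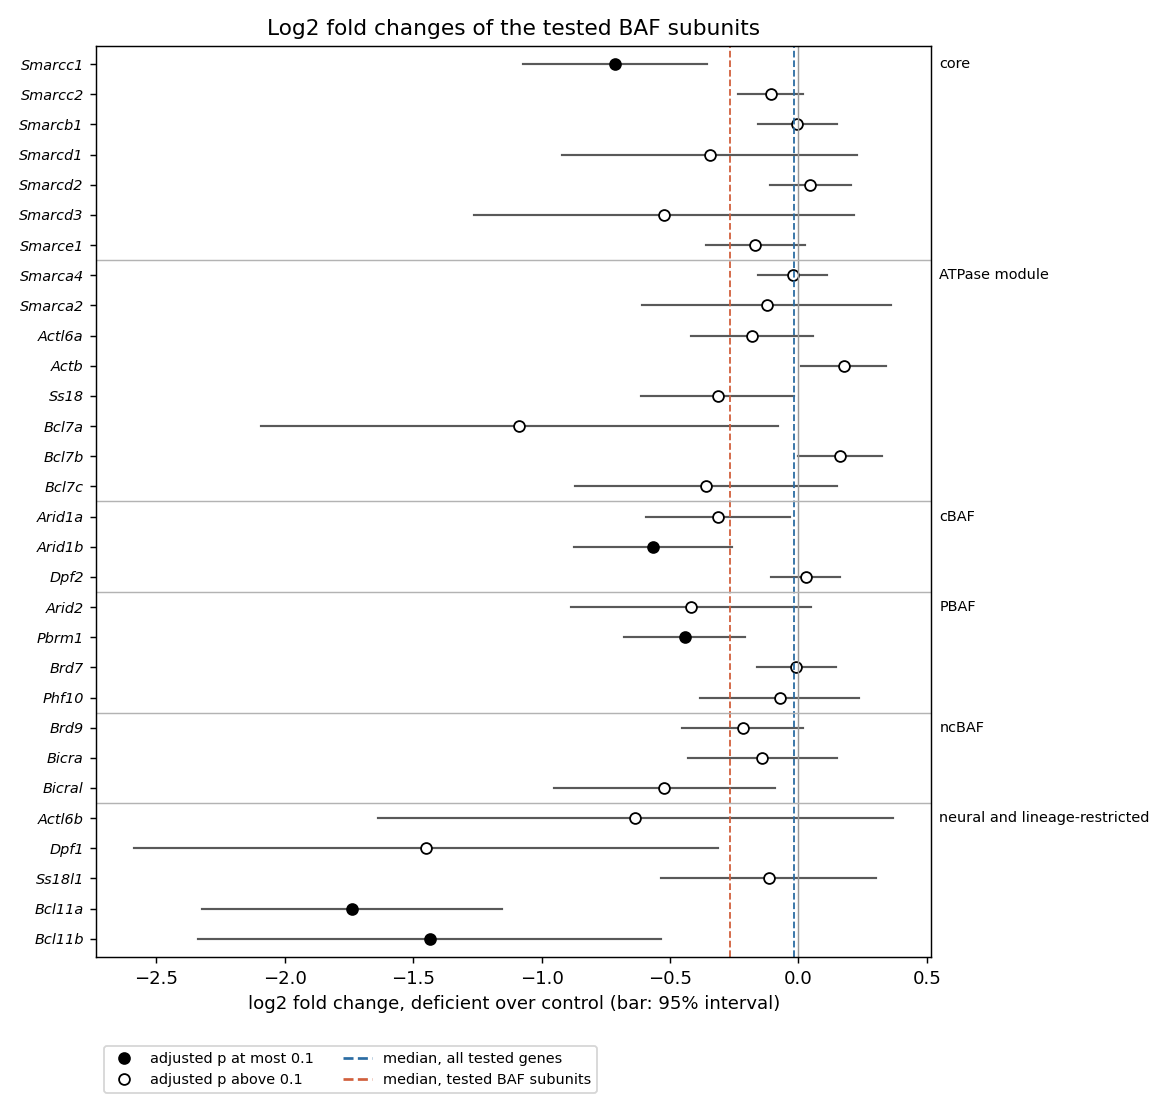
Log2 fold change, deficient over control, of the 30 tested BAF subunit genes (horizontal axis), with bars for the 95% interval and filled points at an adjusted p of at most 0.1. Dashed lines mark the median of the members (−0.27) and of all tested genes (−0.02), and 5 filled points, all left of 0, are those of Smarcc1, Arid1b, Pbrm1, Bcl11a and Bcl11b.

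The other core subunits showed no call. Smarcb1, the subunit lost in rhabdoid tumors, was even, at 35.6 to 36.7 CPM across the 6 libraries with a 95% interval of its log2 fold change from −0.16 to 0.15. Smarce1, an HMG-box subunit, had 38.8 to 44.8 CPM in control and 33.2 to 39.5 CPM in deficient libraries, with a log2 fold change of −0.17 (SE 0.089, edgeR adjusted p = 0.246). The Smarcd paralogs, which link the core to transcription factors, differed among themselves in level. Smarcd2 was the most abundant per kilobase and had a log2 fold change of 0.05 (95% interval −0.11 to 0.20), whereas Smarcd1 had −0.35 (−0.92 to 0.23), an interval too wide to exclude a fall past the fold threshold. Smarcd1 was at 34.1 CPM in control replicate 2 and at 17.2 to 24.5 CPM in the other 5 libraries. Smarcd3, known from heart and muscle, was low, at 1.81 to 2.81 CPM in control and 1.33 to 2.12 CPM in deficient libraries. Each library held 21 to 28 reads of it. As 48.2% of the exon length of Smarcd3 is shared with Chpf2 on the opposite strand, and the strand setting of the counting is not given, its value is uncertain.

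In the ATPase module, Smarca4 (BRG1), the motor subunit, was steady. It had 194, 201 and 181 CPM in control and 196, 183 and 187 CPM in deficient replicates 1, 2 and 3, and its log2 fold change of −0.02 had a 95% interval from −0.16 to 0.11. Its alternative, Smarca2 (BRM), was far lower, at 5.49 to 9.36 CPM in control and 5.87 to 8.07 CPM in deficient libraries, with a log2 fold change of −0.12 (−0.61 to 0.36). Per kilobase of exon, Smarca4 made up 97.7% to 98.8% of the summed level of both ATPases in the 6 libraries, with no separation of the groups.

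The actin-related subunits of that module moved in opposite directions by small amounts. Actl6a, which progenitors use, was at 17.9, 19.1 and 19.0 CPM in control and 17.1, 14.8 and 17.5 CPM in deficient replicates 1, 2 and 3. Actb was at 5752, 5588 and 6184 CPM in control and 6411, 6561 and 6835 CPM in deficient replicates 1, 2 and 3. Neither pair of groups overlapped, yet the log2 fold changes were −0.18 (SE 0.11, adjusted p = 0.305) and 0.18 (SE 0.075, adjusted p = 0.157, both edgeR), so neither passed. Actb passed by DESeq2 (adjusted p = 0.0243), by limma-voom (adjusted p = 0.0883) and without control replicate 3 (edgeR adjusted p = 0.0291). Actb lay in the same direction as the macrophage markers, whose 13 genes all had positive log2 fold changes, from 0.15 to 0.25, and the part of those cells in its level was not tested. Of the exon length of Actl6a, 11.6% is shared with Mrpl47 on the opposite strand.

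The remaining members of the ATPase module are Ss18, the partner in the fusion of synovial sarcoma, and the 3 Bcl7 proteins. Ss18 had 19.1 to 23.8 CPM in control and 14.97 to 20.8 CPM in deficient libraries, with a log2 fold change of −0.31 (SE 0.14, edgeR adjusted p = 0.162), and passed without control replicate 3 (0.0805) and without deficient replicate 1 (0.0698). Bcl7b, the most abundant Bcl7 gene per kilobase, was at 45.6, 44.3 and 46.6 CPM in control and 51.9, 47.0 and 54.2 CPM in deficient replicates 1, 2 and 3. Every deficient library was higher, and the log2 fold change was 0.16 (SE 0.075, edgeR adjusted p = 0.183). Bcl7a was at 16.3, 26.2 and 13.1 CPM in control and 13.1, 7.82 and 5.41 CPM in deficient replicates 1, 2 and 3. Control replicate 3 and deficient replicate 1 thus met at the same level, and the log2 fold change of −1.09 had an SE of 0.41 and an edgeR adjusted p of 0.159. It passed by DESeq2 (adjusted p = 0.00971), by limma-voom (adjusted p = 0.0836), without the filter on low counts (edgeR adjusted p = 0.0656) and without deficient replicate 1 (edgeR adjusted p = 0.0624). Bcl7c had a log2 fold change of −0.36 (SE 0.23, edgeR adjusted p = 0.339), which passed without control replicate 3 (−0.57, edgeR adjusted p = 0.0862).

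Among the cBAF subunits, Arid1b was lower in the deficient libraries. Arid1a and Arid1b are the alternative large subunits that define cBAF and bind DNA, and mutation of ARID1B in people causes Coffin-Siris syndrome. Arid1b was at 45.3, 41.3 and 32.0 CPM in control and 29.3, 27.7 and 23.1 CPM in deficient replicates 1, 2 and 3. The groups did not overlap, and the mean fell from 39.6 ± 6.83 to 26.7 ± 3.21 CPM (SD, n = 3 each), with a log2 fold change of −0.57 (SE 0.14, edgeR adjusted p = 0.0732). Its size is just under the fold threshold of 0.58. Its adjusted p exceeded 0.1 without control replicate 1 (edgeR adjusted p = 0.243), control replicate 2 (0.240), deficient replicate 2 (0.117) or deficient replicate 3 (0.203), with log2 fold changes from −0.59 to −0.45. Arid1a, more abundant per kilobase, was at 90.9 to 122 CPM in control and 79.0 to 98.8 CPM in deficient libraries and had a log2 fold change of −0.31 (SE 0.12, edgeR adjusted p = 0.145). Arid1a passed by DESeq2 (adjusted p = 0.0729), without the filter (edgeR adjusted p = 0.0323), without control replicate 3 (0.0175) and without deficient replicate 1 (0.0775). It also passed with a replicate block (edgeR adjusted p = 0.0096) and, in the opposite direction, under the embryonic scaling (0.76, edgeR adjusted p = 0.0974). Dpf2, a PHD-finger subunit that reads histone acylation, lay between 65.3 and 70.3 CPM in all 6 libraries, with a log2 fold change of 0.03 (95% interval −0.11 to 0.16).

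Of the 4 PBAF subunits, Pbrm1 was lower. It encodes polybromo, which carries a row of bromodomains. Its level was 48.4, 53.7 and 42.0 CPM in control and 40.0, 33.1 and 32.8 CPM in deficient replicates 1, 2 and 3. The highest deficient library stayed below the lowest control library, and the log2 fold change was −0.44 (SE 0.11, edgeR adjusted p = 0.0676), smaller than the fold threshold. That adjusted p rose to 0.237 without control replicate 1, 0.206 without control replicate 2, 0.131 without deficient replicate 2 and 0.210 without deficient replicate 3. Arid2, the PBAF counterpart of the Arid1 proteins, was at 37.4 to 48.3 CPM in control and 24.6 to 39.9 CPM in deficient libraries and had a log2 fold change of −0.42 (SE 0.20, edgeR adjusted p = 0.222). It passed by DESeq2 (adjusted p = 0.0984) and without the filter (edgeR adjusted p = 0.00777). Brd7, a bromodomain subunit, was between 45.5 and 50.6 CPM in all 6 libraries, with a 95% interval from −0.16 to 0.14. Phf10, the PHD-finger subunit of PBAF, had a log2 fold change of −0.07 (−0.38 to 0.24), and 9.57% of its exon length is shared with an antisense gene.

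None of the 3 ncBAF subunits passed. Brd9, the bromodomain subunit of ncBAF, had a log2 fold change of −0.22 (SE 0.11, edgeR adjusted p = 0.218) and passed only without control replicate 3 (−0.31, edgeR adjusted p = 0.0718) and under the embryonic scaling, there in the opposite direction (0.87, edgeR adjusted p = 0.0419). Bicra and Bicral are the alternative scaffold proteins of ncBAF. Bicra had a log2 fold change of −0.14 (SE 0.13). Bicral was at 9.997, 6.96 and 7.88 CPM in control and 4.93, 5.99 and 6.31 CPM in deficient replicates 1, 2 and 3. Its groups did not overlap, and the log2 fold change was −0.52 (SE 0.20, edgeR adjusted p = 0.121), with 11.3% of its exon length shared with the antisense gene Gm26904.

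The members restricted to neural or other lineages held the 3 lowest log2 fold changes of the family, those of Bcl11a, Dpf1 and Bcl11b, of which Bcl11a and Bcl11b passed. Bcl11a and Bcl11b, zinc-finger proteins of neurons and lymphoid cells, are subunits dedicated to certain lineages. Bcl11a was at 13.1, 20.2 and 12.4 CPM in control and 5.80, 3.06 and 4.80 CPM in deficient replicates 1, 2 and 3. All control libraries lay well above all deficient libraries, and the mean fell from 15.2 ± 4.32 to 4.55 ± 1.39 CPM (SD, n = 3 each). The log2 fold change was −1.74 (SE 0.26, edgeR adjusted p = 0.0408), the only member at an adjusted p of at most 0.05. Bcl11a no longer passed without control replicate 1 (−1.83, edgeR adjusted p = 0.214), without deficient replicate 3 (−1.79, 0.114) and under the embryonic scaling (−0.64, 0.122). Bcl11b was at 6.06, 10.2 and 3.20 CPM in control and 2.98, 1.71 and 2.37 CPM in deficient replicates 1, 2 and 3. Its groups were separated by a narrow margin, and the log2 fold change was −1.44 (SE 0.40, edgeR adjusted p = 0.0842). That call was lost without control replicate 1 (edgeR adjusted p = 0.245), control replicate 2 (0.249), deficient replicate 2 (0.175) or deficient replicate 3 (0.276), by limma-voom (−1.23, adjusted p = 0.104) and under the embryonic scaling (−0.24, edgeR adjusted p = 0.599).

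Of the double PHD-finger genes that neural cells take up, Dpf1 was at 2.87, 5.62 and 1.89 CPM in control and 1.10, 2.02 and 0.617 CPM in deficient replicates 1, 2 and 3. Deficient replicate 2 overlapped the control range, and the log2 fold change of −1.45 had an SE of 0.51 and an edgeR adjusted p of 0.113. Dpf1 passed by DESeq2 (adjusted p = 0.0619), with library totals (edgeR adjusted p = 0.0806), without the filter (0.00576), without control replicate 3 (0.0397) and without deficient replicate 2 (0.0986). Dpf3 did not pass the filter on low counts, with 5, 9 and 8 reads in control and 4, 4 and 7 reads in deficient replicates 1, 2 and 3. Scaled to depth this was 0.532, 1.204 and 0.656 CPM against 0.313, 0.244 and 0.332 CPM, and no test was made. Actl6b, the neuronal counterpart of Actl6a, had 5 to 15 reads in control and 8 to 17 reads in deficient libraries, so its log2 fold change of −0.63 (95% interval −1.64 to 0.37) says little at this depth. Ss18l1, the neuronal counterpart of Ss18, was at 5.50 to 7.36 CPM in control and 5.602 to 6.27 CPM in deficient libraries, with a log2 fold change of −0.12 (−0.53 to 0.30).

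The fall of Bcl11a and Bcl11b went along with lower neuron and crest markers. All 10 tested neuron markers had negative log2 fold changes (median −1.36) and 4 passed at the adjusted p of 0.1, while all 20 tested crest markers were negative (median −1.06) and 13 passed (edgeR, Benjamini-Hochberg). Of the 10 tested neural tube progenitor markers, 9 were negative and 1 positive (median −0.79), 2 passed, and their sums overlapped between the groups. Smarcc1, Pbrm1, Bcl11a, Bcl11b and Dpf1, like the embryonic marker sum, were highest in control replicate 2, then 1, then 3. Arid1b did not follow that order in control, whereas Smarca4, steady between the groups, did. In the deficient libraries the order of the embryonic sum held for Smarcc1, Pbrm1 and Arid1b, and not for Bcl11a, Bcl11b or Dpf1. That order is uncertain, as the sum was near a tie between deficient replicates 2 and 3 (260.0 and 258 CPM). Over the whole family, 15 of 30 members had the control libraries in that order, beside 25.4% of all tested genes, and 16 members were highest in control replicate 2 among the controls, beside 39.2% of all tested genes. In the deficient libraries 8 members followed the order of the embryonic sum, beside 20.1% of all tested genes. The part of the embryonic share of each library in the members' values was not tested.

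**Figure D3:**
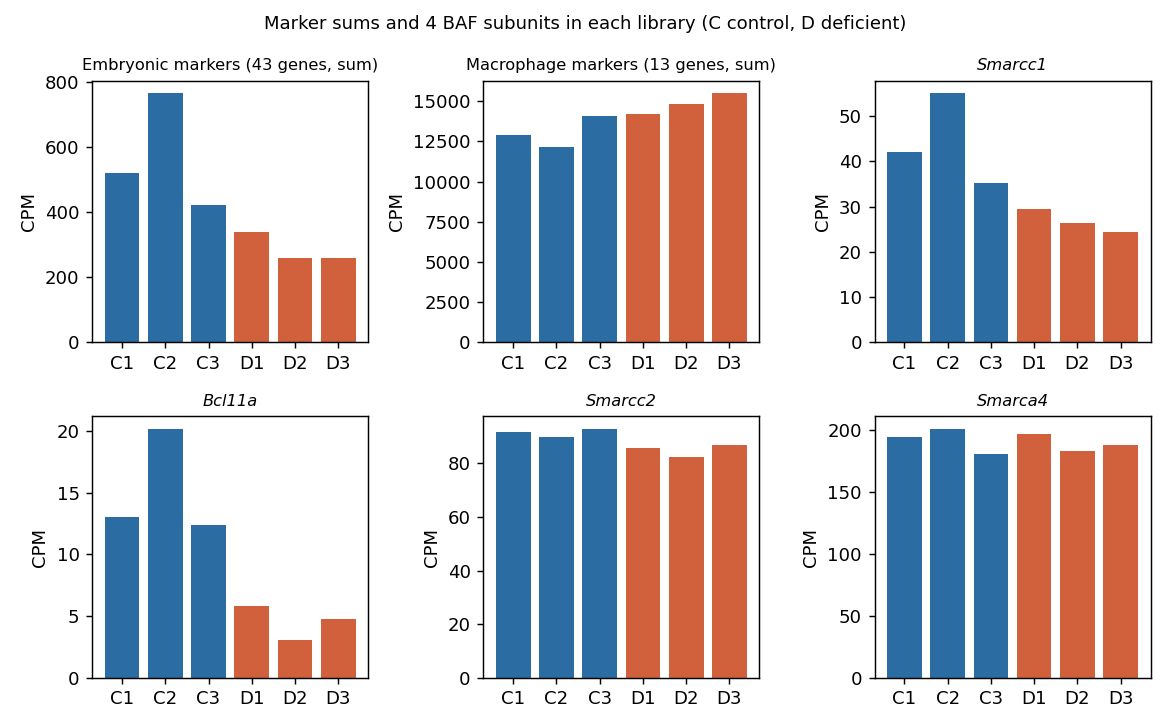
Summed CPM of the 43 embryonic markers and the 13 macrophage markers in each library, beside the CPM of Smarcc1, Bcl11a, Smarcc2 and Smarca4, 1 bar per library (C control in blue, D deficient in orange), each panel with its own axis from 0. The embryonic sum runs from 422 to 764 CPM in control and from 258 to 339 CPM in deficient libraries, and the macrophage sum from 12130 to 14060 CPM and from 14190 to 15480 CPM.

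Levels of the members were compared per kilobase of exon, as CPM per kb in control libraries. Actb, at 2180 ± 115 CPM per kb (SD, n = 3), exceeded all other members. Next came Smarca4 at 29.6 ± 1.58, Bcl7b at 18.9 ± 0.487, Smarcc2 at 16.5 ± 0.273, Smarcd2 at 11.6 ± 0.533 and Dpf2 at 10.2 ± 0.211 CPM per kb. The SDs of these neighbours did not overlap, whereas Arid1a (9.50 ± 1.40) and Brd7 (9.15 ± 0.489) were within their spread of each other. Smarcc1 at 5.63 ± 1.29 was within its spread of its neighbours Pbrm1 (5.43 ± 0.658) and Smarce1 (6.24 ± 0.459). The lowest members were Bcl11b (0.799), Dpf1 (0.644), Smarca2 (0.511), Smarcd3 (0.460), Actl6b (0.232) and Dpf3 (0.189 CPM per kb), which hold 4 of the 6 lineage-restricted genes.

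**Figure D4:**
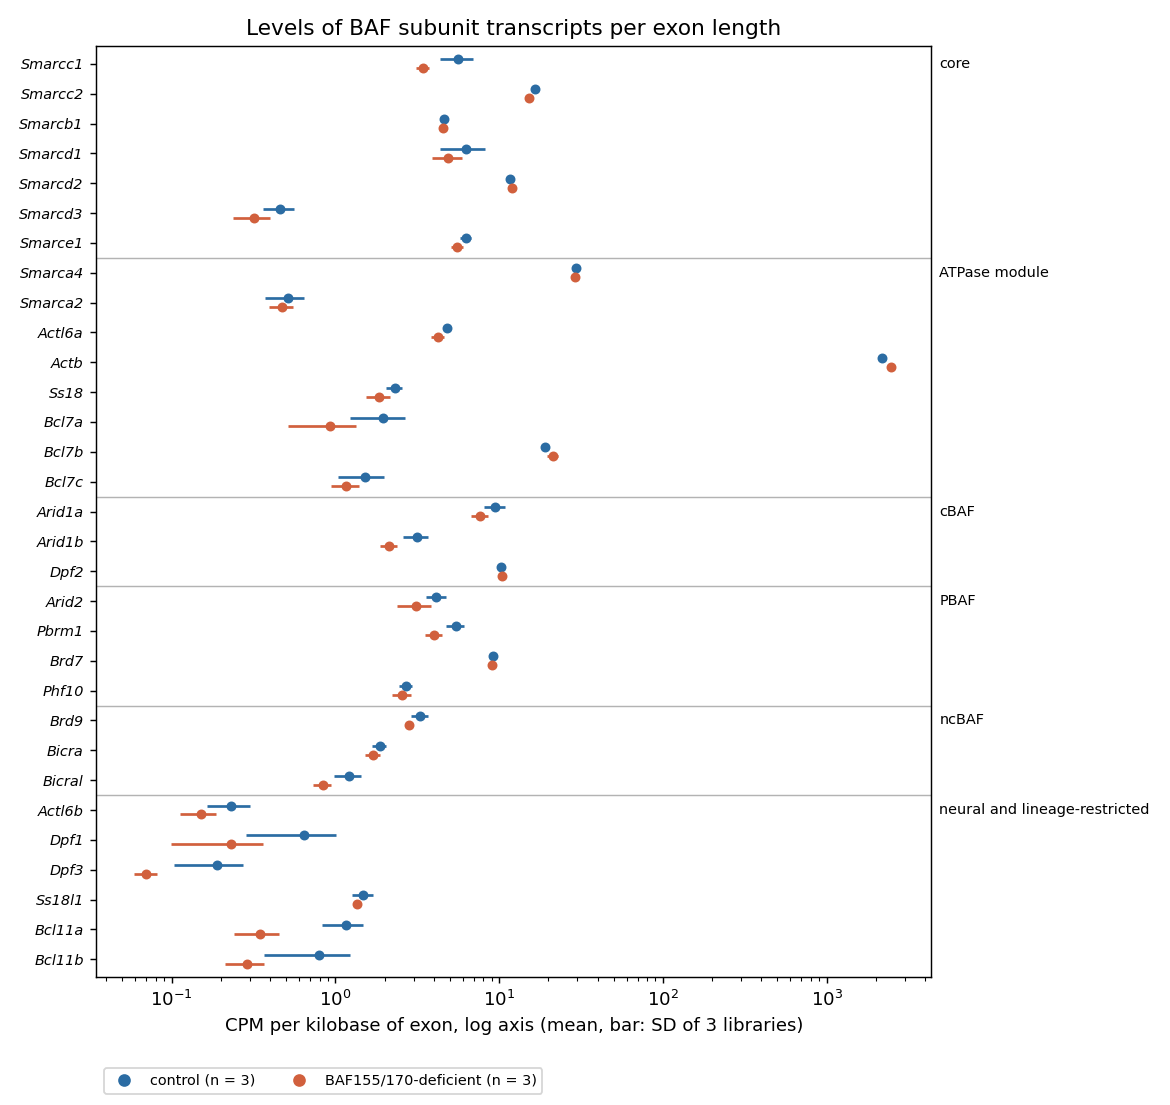
Level per kilobase of exon of each BAF subunit gene, in CPM per kb on a log axis, as the mean (point) and SD (bar) of the 3 control libraries in blue and the 3 deficient libraries in orange. Actb stands far above the rest, followed by Smarca4, Bcl7b and Smarcc2, and Dpf3 and Actl6b are lowest.

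Ratios between paralogs within a library do not depend on the scaling between libraries, and 17 pairs were examined as log2 ratios of counts. The groups did not overlap for 5 of the 17 pairs, beside 27.4% of all pairs of tested genes, so the share is near the background. Smarcc1 over Smarcc2 was −1.12, −0.71 and −1.40 in control and −1.55, −1.64 and −1.83 in deficient replicates 1, 2 and 3, a difference of −0.59. Bcl7a over Bcl7b was −1.48, −0.75 and −1.83 in control and −1.98, −2.58 and −3.32 in deficient replicates 1, 2 and 3, a difference of −1.27. Bcl7a over Bcl7c was 0.64, 0.84 and 0.76 in control and 0.35, 0.093 and −0.51 in deficient replicates 1, 2 and 3, a difference of −0.77. In these 3 pairs the first gene lost ground to its paralog in every deficient library. Arid1a over Arid1b went the other way, from 1.34, 1.56 and 1.504 in control to 1.75, 1.61 and 1.77 in deficient replicates 1, 2 and 3, a difference of 0.25. Dpf2 over Dpf3 was 6.82, 5.68 and 6.61 in control and 7.55, 7.999 and 7.56 in deficient replicates 1, 2 and 3, a difference of 1.33 that rests on at most 9 reads of Dpf3 per library. The 2-sided exact permutation test gave p = 0.1 for each of the 5 pairs, the smallest that 3 against 3 libraries allow, and 0.309 after Benjamini-Hochberg adjustment over the 17 pairs.

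As shares of a family per kilobase, Bcl7a went from 8.65% ± 2.91 to 3.96% ± 1.65 of the Bcl7 genes and Arid1b from 18.7% ± 1.07 to 16.5% ± 0.612 of Arid1a, Arid1b and Arid2 (SD, n = 3 each), without overlap of the groups. Smarca4 to Smarca2 differed by 0.068 between the groups (permutation p = 0.9, exact), with control libraries from 4.27 to 5.18 and deficient libraries from 4.496 to 5.05. Bcl11a to Bcl11b overlapped too, with 55.0% to 70.5% of their summed level from Bcl11a in control and 52.4% to 55.4% in deficient libraries.

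**Figure D5:**
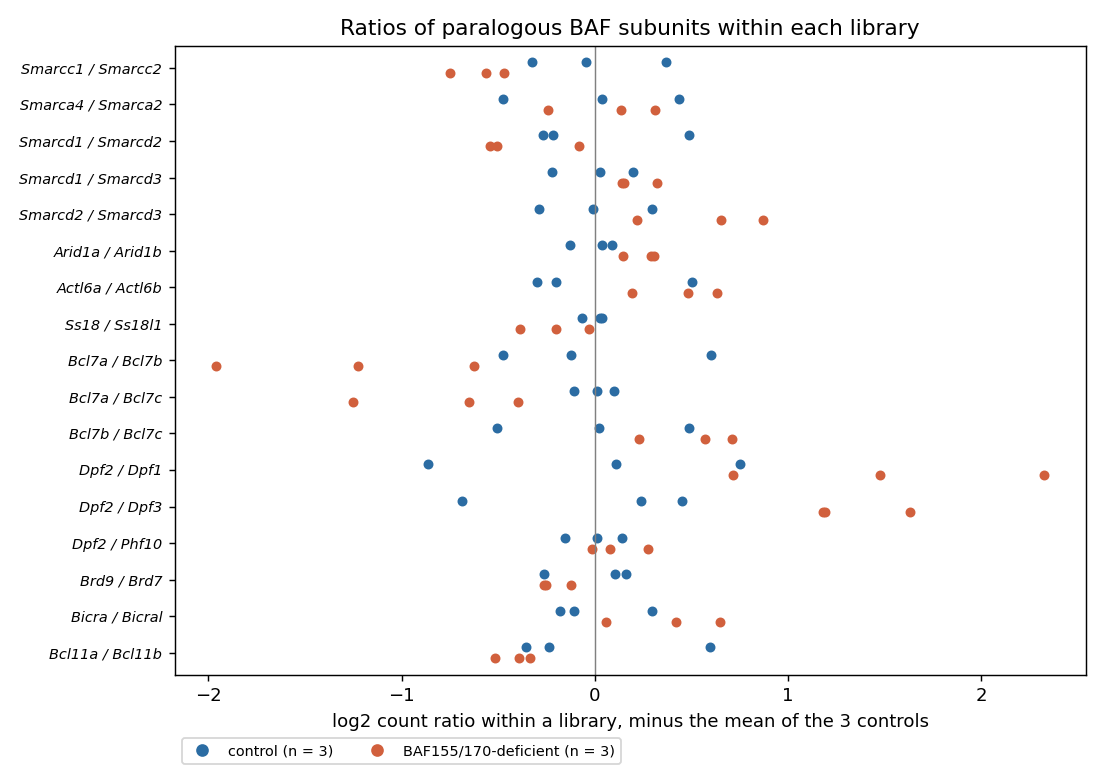
Log2 count ratio of each of the 17 paralog pairs in each library, minus the mean of the 3 control libraries (horizontal axis), with control libraries as blue and deficient libraries as orange points. The groups are apart for Smarcc1 to Smarcc2, Bcl7a to Bcl7b, Bcl7a to Bcl7c, Arid1a to Arid1b and Dpf2 to Dpf3, and overlap for the other 12 pairs.

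The related remodelers INO80, SRCAP and TIP60, which also share actin and actin-related subunits with BAF, served for comparison. Their 30 genes were all tested, and the median of their log2 fold changes was 0.03, with 14 negative and 16 positive. Groups lay apart for 2 genes on the lower and 5 on the higher side, beside 16.4% and 15% of all tested genes. By edgeR with Benjamini-Hochberg adjustment 1 gene passed at 0.1, Ep400, the ATPase of TIP60, beside the 11.9% of all tested genes. Ep400 was at 90.7, 94.9 and 87.5 CPM in control and 79.3, 81.6 and 75.3 CPM in deficient replicates 1, 2 and 3, all of the latter lower, with a log2 fold change of −0.21 (SE 0.063, edgeR adjusted p = 0.0880). Ep400 did not pass by DESeq2 (adjusted p = 0.136), with library totals (edgeR adjusted p = 0.408), without the filter (0.331), with a length trend removed (0.055 in place of −0.21, edgeR adjusted p = 0.679) or without any 1 of the libraries other than control replicate 3 (edgeR adjusted p from 0.102 to 0.304). The difference between the lists of BAF and of the related remodelers was not tested.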

How the data were processed

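RNA of sorted GFP+ cells from 3 control and 3 BAF155/170-deficient embryos was made into strand-specific poly(A) libraries and sequenced in pairs. Per the labels and methods, the authors used cutadapt 1.18, FastQC 0.11.7, STAR on GRCm38 and featureCounts, and deposited raw counts per gene. The annotation release, strand setting and treatment of reads mapping to several places are not given in the sources used here, so genes with antisense partners are uncertain. GENCODE M21 gave names (46488 of 46983 genes), coordinates and exon lengths. Each replicate was read from the methods as 1 embryo, which the labels do not state.

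The tests were run with edgeR 4.0.16 under R 4.3.3: filterByExpr (minimum count 10, total 15), TMM, robust quasi-likelihood test with condition as the only term, and Benjamini-Hochberg adjustment over 13961 genes. The common biological coefficient of variation was 12.8%. CPM used TMM library sizes. A call needed an adjusted p up to 0.1, a mean of 2 CPM or more and a log2 change of 0.58 or more in either direction. Ratios used a prior count of 0.5. Only the main edgeR fit was run on simulated data, with changes larger than any of the members and the same coefficient of variation of 12.8% for every gene. Alternatives were DESeq2 1.42.0, limma-voom (limma 3.58.1), library totals, scaling to 31 embryonic markers, removal of a length trend (lowess span 0.3), other filters and thresholds, a replicate block and each library left out. Members and lists were chosen with earlier results of these data known. Every listed subunit is named, with values per library for the targeted genes, those at an adjusted p of at most 0.1, those whose groups do not overlap, those not tested and the separated pairs; other subunits and libraries named were chosen after their values were seen. Summaries used Python 3.11.15 and scipy 1.17.1.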

Additional observations from a re-analysis of the deposited data

How the results depend on the processing

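Scaling the libraries to the embryonic markers takes the median log2 CPM of 31 of those genes as equal in all 6 libraries. With that scaling the median of all genes went up by 1.05 (log2). Under it, 9642 genes were called in place of 689, 19 members passed at an adjusted p up to 0.1 (beside 74.3% of all genes) and all 19 were called, 27 genes of INO80, SRCAP and TIP60 passed, and the members' median reversed to 0.81. Those 19 members included Actb, Arid1a, Bcl7c and Ss18. The members that reversed there stood at 0.39 (Smarcc1), 0.93 (Smarcc2), 1.04 (Smarcb1), 0.76 (Smarcd1), 0.57 (Smarcd3), 0.90 (Smarce1), 1.03 (Smarca4), 0.86 (Smarca2), 0.86 (Actl6a), 0.75 (Ss18), 0.022 (Bcl7a), 0.76 (Bcl7c), 0.76 (Arid1a), 0.52 (Arid1b), 0.64 (Arid2), 0.63 (Pbrm1), 1.02 (Brd7), 0.996 (Phf10), 0.87 (Brd9), 0.92 (Bicra), 0.54 (Bicral), 0.39 (Actl6b) and 0.97 (Ss18l1), and Ep400 at 0.84. Other reversals were of members near 0. Smarcb1 was at 0.014 by DESeq2, 0.057 with library totals, 0.14 with the length trend removed and 0.046 without the filter. Brd7 was at 0.0099 by DESeq2, 0.053 with library totals, 0.048 with the length trend removed and 0.041 without the filter. Smarca4 was at 0.043 with library totals, 0.072 with the length trend removed and 0.027 without the filter, and with that trend removed Smarca2 was at 0.13 and Ep400 at 0.055. With a library left out, Smarcb1 ranged from −0.0086 to 0.0060, Smarca4 from −0.065 to 0.012, Smarca2 from −0.28 to 0.11, Brd7 from −0.043 to 0.036 and Phf10 from −0.16 to 0.016.

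Members at an adjusted p of at most 0.1 numbered 10 by DESeq2 (beside 14.8% of all genes), 9 without the filter (beside 9.52%), 1 at an adjusted p of at most 0.05 (where 94 genes were called) and 0 to 11 with a library left out (beside 0% to 25.95%). Members called numbered 5 by DESeq2 (beside 883 genes), 5 without the filter (beside 1015 genes) and 0 to 5 with a library left out, over 0 to 1245 genes called. Genes of INO80, SRCAP and TIP60 numbered 0 by DESeq2 (Benjamini-Hochberg, beside 14.8% of all genes) and 0 with library totals (beside 7.75%). They numbered 2 with the length trend removed (beside 13.1%), 3 without the filter (beside 9.52%) and 0 to 3 with a library left out (beside 0% to 25.95%). At an unadjusted p under 0.05 by edgeR there were 4, beside 27.3% of all tested genes. The members' median was −0.12 with the length trend removed and from −0.36 to −0.15 with a library left out, and separated paralog pairs then numbered 5 to 10 of 17, beside 32.2% to 46.8% of all pairs of tested genes. The cause of these shifts was not tested. Outside the embryonic scaling, Bcl11a, Arid1b, Pbrm1 and Smarcc1 passed under every alternative that kept all 6 libraries at the threshold of 0.1.

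Same-numbered libraries of the 2 groups had correlations of their deviations of 0.028, −0.034 and 0.29, so the numbers were not taken to pair them. Not every library correlated best with its own number, as control replicate 2 and deficient replicate 1 had 0.26. The numbers are those of the sample titles, and the count columns of the deficient libraries carry other numbers. With the replicate block, 1164 genes and 5 members were called, and 11 members and 4 genes of the related remodelers had an adjusted p up to 0.1, beside 26.2% of all genes. Members that passed here but not in the main fit were Arid1a (edgeR adjusted p = 0.0096), Arid2 (0.0054), Dpf1 (0.0095), Actb (0.0289), Bcl7a (0.0448) and Ss18 (0.0895). Of the 17 paralog pairs, 12 differed with one sign in all 3 numbers, beside 48.8% of all pairs of tested genes. Depth limits Dpf3, Actl6b, Smarcd3 and Dpf1, with few reads per library, and single-gene intervals cover the spread between 3 libraries a group.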
